A study of Mus musculus with 13 samples.

Results

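This account covers Dkk3 and a set of Wnt secretion, inhibitor and receptor genes in mouse quadriceps muscle in which DOR, now named Trp53inp2, was ablated or expressed as a gain of function. The set was listed by name and holds 10 genes: the secreted inhibitors Dkk3, Dkk2, Sfrp1, Sfrp2, Sfrp4, Frzb and Wif1, the Wnt carrier Wls, and the receptors Fzd4 and Fzd7. Dkk3 and Wls were selected on their log2 differences, whose effects differed between loss and gain of DOR, so their differences are given as a description with no test. Of the 10 genes, 9 had at least 1 probe set annotated to no other gene, 15 probe sets in all, and these belong to 17097 genes measured in the same way. Genes were tested where the mean log2 signal over all arrays reached 4.90, the median over all probe sets, which left 6 of the 10 members (Dkk3, Wls, Sfrp2, Frzb, Fzd4 and Fzd7) among 10411 genes tested.

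RNA came from quadriceps of 13 male C57Bl/6 mice aged 4 months on standard chow, with 1 Affymetrix array per mouse. The groups were SKM-KO (n = 3), read from the design as DOR ablation in skeletal muscle, with C (n = 3) taken as its control, and SKM-Tg (n = 4), read as DOR gain of function, with Wt (n = 3) taken as its control. The labels give these short names as the genotype and do not say which control belongs to which line, which promoter or Cre drives either allele, or whether the lines share litters, so every comparison rests on that reading. The animal numbers in the titles lie in one range for C and SKM-KO and in a later one for Wt and SKM-Tg, and the descriptions carry a minus sign for Wt and a plus sign for SKM-Tg. Because the arrays are of separate mice, p-values measure the spread between animals, estimated jointly over all 4 groups and not for each comparison alone. Trp53inp2 itself was lower in SKM-KO than in C, with SKM-KO minus C at -2.35 log2 (SE 0.14, limma adjusted p = 3.76e-06), with every SKM-KO array below every C array. Between SKM-Tg and Wt it differed by -0.06 (limma adjusted p = 0.886). Whether the transgene carries the sequence of this probe set is not given in the sources used here, so the latter value does not check the SKM-Tg label, and SKM-Tg below means the arrays labelled so. All 9 listed markers of fast muscle fibres passed the filter. The array Wt 2 stood apart, with a mean correlation of 0.968 to the other arrays against 0.986 to 0.991 for the remaining 12, and its Gapdh 3′ minus 5′ difference of 0.245 lay inside the range of 0.226 to 0.302 over all arrays.

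Wnt proteins are lipid-modified ligands that Wls, a membrane carrier, brings from the Golgi to the cell surface. They signal through Frizzled receptors and the co-receptors Lrp5 and Lrp6, and secreted antagonists act outside the cell: Sfrp proteins and Frzb resemble the ligand-binding part of Frizzled and bind Wnts, Wif1 binds Wnts through a domain of its own, and Dkk2 binds Lrp5 and Lrp6. Dkk3 is the divergent member of the Dickkopf family, and its place in Wnt signalling is less settled. In skeletal muscle Wnt signals are known for their part in regeneration, satellite cell behaviour and fibre growth, and Fzd7 is known there as a receptor of Wnt7a.

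The bases before the annotated start are printed for the tested members with a RefSeq entry whose brightest probe set separated groups without overlap, to show whether the TCF/LEF core, through which beta-catenin acts on its targets, occurs there. RefSeq promoters of assembly GRCm38.p6 were found for 7 of the 10 members (Wls, Dkk2, Sfrp2, Frzb, Wif1, Fzd4 and Fzd7). Each line below holds the 250 bases ending at the base before the start, 5′ to 3′ on the strand of the gene, at chr3:159839400-159839649 (plus strand) for Wls, chr7:89404116-89404365 (plus strand) for Fzd4 and chr1:59481897-59482146 (plus strand) for Fzd7. Capitals mark a match to a motif searched, on either strand.
Wls: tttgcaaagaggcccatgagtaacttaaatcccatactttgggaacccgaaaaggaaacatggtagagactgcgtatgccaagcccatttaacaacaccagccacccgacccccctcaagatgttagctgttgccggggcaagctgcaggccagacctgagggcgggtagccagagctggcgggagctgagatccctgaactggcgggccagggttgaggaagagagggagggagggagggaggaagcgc
Fzd4: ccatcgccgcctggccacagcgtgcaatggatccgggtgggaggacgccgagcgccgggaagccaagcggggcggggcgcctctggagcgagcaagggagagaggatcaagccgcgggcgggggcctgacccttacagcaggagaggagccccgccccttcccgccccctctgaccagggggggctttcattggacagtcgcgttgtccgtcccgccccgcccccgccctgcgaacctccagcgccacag
Fzd7: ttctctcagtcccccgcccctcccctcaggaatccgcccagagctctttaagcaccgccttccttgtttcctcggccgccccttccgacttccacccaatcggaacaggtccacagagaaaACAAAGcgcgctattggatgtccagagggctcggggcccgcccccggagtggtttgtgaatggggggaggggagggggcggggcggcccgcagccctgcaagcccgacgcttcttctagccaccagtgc
The motifs searched were the TCF/LEF cores CTTTGA and CTTTGT and the nuclear receptor half-site AGGTCA, on both strands. AGGTCA can share its last 3 letters with CTTTGA read on the opposite strand, and no such pair occurred in the member windows. The Fzd7 window held 1 match, CTTTGT on the minus strand, 129 to 124 bases before the start, and the Wls and Fzd4 windows held 0. Outside these, Dkk2 had CTTTGT on the plus strand at 80 to 75 bases before the start, and Frzb had CTTTGA on the minus strand at 95 to 90 bases before it. Either TCF/LEF core occurred in 27.6% of 32851 promoter windows of the same length and AGGTCA in 14.0%, so a match in 3 of 7 member windows is given as a description and not as a binding site.

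Dkk3 had opposite differences in the lines: its signal was higher in SKM-KO than in C and lower in SKM-Tg than in Wt, with no overlap between groups in either comparison on either of its 2 probe sets. Of all genes tested, 4.66% had SKM-KO wholly above C and 2.79% had SKM-Tg wholly below Wt. In C the log2 signal of the brighter probe set was 6.04, 5.16 and 5.85, and in SKM-KO it was 6.56, 6.35 and 6.64. In Wt it was 6.42, 6.68 and 6.53, and in SKM-Tg it was 6.04, 5.68, 5.79 and 5.48. The 3 SKM-KO and 3 Wt arrays were thus all high and the 3 C and 4 SKM-Tg arrays all low.

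The means were 5.68 ± 0.46 (SD, n = 3) in C, 5.75 ± 0.23 (SD, n = 4) in SKM-Tg, 6.51 ± 0.15 (SD, n = 3) in the SKM-KO arrays, and 6.54 ± 0.13 (SD, n = 3) in Wt. In that order C and SKM-Tg overlap, SKM-KO and Wt overlap, and the gap lies between SKM-Tg and SKM-KO. The difference SKM-KO minus C was 0.83 (SE 0.20, 1.78-fold higher), and SKM-Tg minus Wt was -0.80 (SE 0.19, 1.74-fold lower). Both controls differed by nearly the same amount, since Wt exceeded C by 0.86 with no overlap, a separation that 15.4% of all genes tested showed in that direction. The C and Wt values also entered the choice of Dkk3, so no difference between the control groups is read from them.

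On its dimmer probe set Dkk3 gave 5.82, 5.24 and 5.31 in C, 6.27, 5.97 and 6.57 in SKM-KO, 5.96, 6.58 and 6.01 in Wt, and 5.58, 5.77, 5.56 and 5.20 in SKM-Tg. The same arrays were high and low, with differences of 0.81 in SKM-KO minus C and -0.65 in SKM-Tg minus Wt. Over 13 arrays the 2 probe sets correlated with Pearson r = 0.90, and with r = 0.66 after group means were subtracted, a description over arrays that share the same RNA. The difference of effects, SKM-Tg minus Wt less SKM-KO minus C, was -1.62 on the brighter probe set, the value by which Dkk3 was chosen. Its size depended on C 2, the lowest array: without it SKM-KO minus C was 0.57, and over all single arrays left out it ran from 0.57 to 1.01.

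Across all genes tested, 16 (0.154%) had SKM-KO above C and SKM-Tg below Wt with no overlap in either, and 5 (0.0480%) had every C and SKM-Tg array below every SKM-KO and Wt array. Dkk3 is in both counts, which the choice of Dkk3 fixes, so nothing is read from them.

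**Figure D1:**
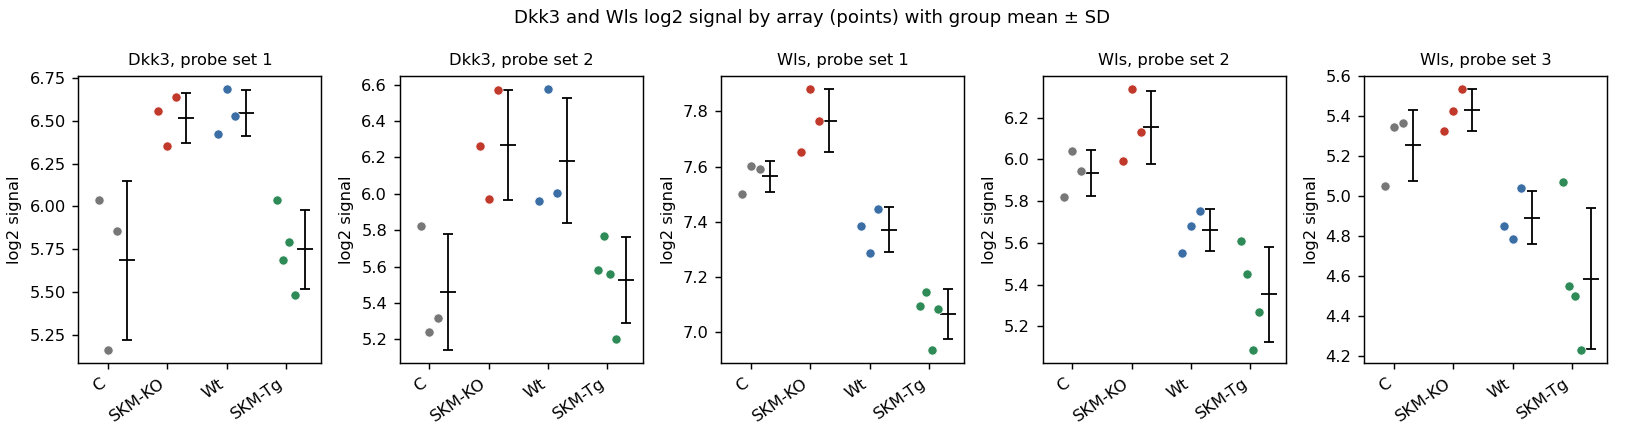
Log2 signal (y axis) of each probe set of Dkk3 and Wls in each group (x axis), with 1 point per array and the black mark and bars at the group mean ± SD. On both Dkk3 probe sets the C and SKM-Tg arrays lie below the SKM-KO and Wt arrays, while the brightest Wls probe set steps from SKM-Tg at the bottom through Wt and C to SKM-KO. The panels have separate y axes that do not start at 0.

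Wls followed a different order of groups from Dkk3, although both were higher in SKM-KO and lower in SKM-Tg than their controls. Its brightest probe set read 7.50, 7.60 and 7.59 in C, 7.65, 7.88 and 7.77 in SKM-KO, 7.38, 7.29 and 7.45 in Wt, and 7.09, 7.14, 6.94 and 7.09 in SKM-Tg. No group overlapped another: every SKM-Tg array lay below every Wt array, every Wt array below every C array, and every C array below every SKM-KO array. Wt lay wholly below C for 8.51% of all genes tested.

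The Wls means were 7.06 ± 0.09 (SD, n = 4) in SKM-Tg, 7.37 ± 0.08 (SD, n = 3) in Wt, 7.56 ± 0.06 (SD, n = 3) in C, and highest, 7.77 ± 0.11 (SD, n = 3), in SKM-KO. The differences were 0.20 (SE 0.10, 1.15-fold) in SKM-KO minus C and -0.31 (SE 0.09, 1.24-fold lower) in SKM-Tg minus Wt, and Wt lay below C by 0.19 (Wt minus C -0.19). These steps are smaller than those of Dkk3, but the arrays of a group lay closer together. The other probe sets of Wls gave SKM-KO minus C differences of 0.22 and 0.18 and SKM-Tg minus Wt differences of -0.31 on each.

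On the second probe set of Wls the log2 signal was 5.82, 6.04 and 5.95 in C, 5.99, 6.34 and 6.13 in SKM-KO, 5.55, 5.68 and 5.75 in Wt, and 5.61, 5.45, 5.09 and 5.27 in SKM-Tg. Here SKM-KO overlapped C and SKM-Tg overlapped Wt, so the order of the brightest probe set was not fully seen. On the dimmest it was 5.05, 5.35 and 5.37 in C, 5.32, 5.43 and 5.54 in SKM-KO, 4.85, 4.78 and 5.04 in Wt, and 5.07, 4.55, 4.50 and 4.23 in SKM-Tg. What all 3 probe sets shared was every SKM-Tg array lying below every SKM-KO array and every Wt array below every C array. The share of all genes with SKM-Tg wholly below SKM-KO was not counted. The choice of Wls favours that separation, and the 3 probe sets read the same RNA. The probe sets correlated with r from 0.88 to 0.96 over 13 arrays.

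Of 10411 genes, 3 (0.0288%) had all groups in some order with no overlap, and these were Wls, Fzd4 and Pmpca. This count was made after their values were seen. Their orders differed, and the orders of Wls and of Fzd4 were each shown by 1 gene (0.00961%). From low to high Wls ran SKM-Tg, Wt, C, SKM-KO, Fzd4 ran C, SKM-KO, Wt, SKM-Tg, and Pmpca ran Wt, SKM-KO, C, SKM-Tg. Wls was chosen for its opposite effects, which bear on its order, so nothing is read from its place in the count. The other probe sets of Wls and of Fzd4 did not show these orders without overlap. Between members, Dkk3 and Wls correlated with r = 0.36 over 13 arrays and with r = -0.39 after group means were subtracted.

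Of the receptors, Fzd4, which binds norrin as well as Wnts and is prominent in endothelium, had its lowest signal in C and its highest in SKM-Tg. The brighter probe set gave 8.44, 8.23 and 8.37 in C, 8.72, 8.47 and 8.53 in SKM-KO, 9.04, 8.82 and 9.03 in Wt, and 9.16, 9.31, 9.17 and 9.06 in SKM-Tg. Each group lay wholly above the group named before it, with the main gap between the lines and not within them. SKM-Tg lay wholly above Wt for 1.18% of all genes tested.

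Fzd4 averaged 8.35 ± 0.11 (SD, n = 3) in C, 8.57 ± 0.13 (SD, n = 3) in SKM-KO, 8.97 ± 0.13 (SD, n = 3) in Wt and 9.17 ± 0.10 (SD, n = 4) in SKM-Tg. SKM-KO exceeded C by 0.22 (95% interval -0.01 to 0.46, limma adjusted p = 1) and SKM-Tg exceeded Wt by 0.21 (95% interval -0.02 to 0.43, limma adjusted p = 0.702), and neither passed the threshold of 0.05. The effects of both lines thus had the same sign, and their difference was -0.02 (95% interval -0.34 to 0.31, limma adjusted p = 0.991). Wt exceeded C by 0.62 (SE 0.11, 95% interval 0.38 to 0.86, 1.53-fold), with limma adjusted p = 0.144. Without Wt 3 that difference was 0.58 and passed (limma adjusted p = 0.00614), but 4119 genes passed there, against 1 in the fit of all arrays.

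The second probe set of Fzd4 gave 6.65, 6.48 and 6.67 in C, 6.66, 6.74 and 6.85 in SKM-KO, 7.20, 6.92 and 7.23 in Wt, and 7.19, 7.18, 7.42 and 7.23 in SKM-Tg. SKM-KO overlapped C and SKM-Tg overlapped Wt there, and every Wt and SKM-Tg array remained above every C and SKM-KO array. The share of all genes with that split was not counted, and Wt lay wholly above C for 15.4% of all genes tested. Its differences were 0.15 in SKM-KO minus C, 0.14 in SKM-Tg minus Wt and 0.52 in Wt minus C.

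Fzd7 was lower in SKM-Tg than in every other group. The brighter probe set read 7.31, 7.77 and 7.25 in C, 7.01, 7.74 and 7.28 in SKM-KO, 7.33, 7.13 and 7.26 in Wt, and 6.34, 6.54, 6.70 and 6.75 in SKM-Tg. All 4 SKM-Tg arrays lay below all 9 others, as they did for 75 of 10411 genes (0.720%), while C, SKM-KO and Wt overlapped one another.

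The means of Fzd7 were 6.58 ± 0.19 (SD, n = 4) in SKM-Tg, 7.24 ± 0.10 (SD, n = 3) in Wt, 7.34 ± 0.37 (SD, n = 3) in the SKM-KO arrays, and 7.44 ± 0.28 (SD, n = 3) in C. SKM-Tg minus Wt was -0.66 (SE 0.18, 95% interval -1.04 to -0.28, 1.58-fold lower), which did not pass (limma adjusted p = 0.594). Leaving out single arrays moved it between -0.71 and -0.57, with limma adjusted p from 0.0842 to 0.966. SKM-KO minus C was -0.10 (95% interval -0.51 to 0.31, limma adjusted p = 1), and the difference of effects was -0.56 (95% interval -1.11 to 0.0013, limma adjusted p = 0.989).

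The dimmer probe set of Fzd7 read 6.41, 6.92 and 6.45 in C, 6.26, 6.77 and 6.69 in SKM-KO, 6.81, 6.92 and 6.40 in Wt, and 6.18, 6.08, 6.33 and 6.18 in SKM-Tg. On this probe set too SKM-Tg lay wholly below Wt, by -0.52, and wholly below C, but it overlapped SKM-KO. SKM-Tg lay wholly below Wt for 2.79% of all genes tested, and both probe sets of Fzd7 read the same RNA. The probe sets of Fzd7 correlated with r = 0.79 over 13 arrays. Fzd4 and Fzd7 ran against each other over the arrays (r = -0.80, and -0.54 after group means were subtracted), and Wls correlated with Fzd7 at r = 0.81 and with Fzd4 at r = -0.81, with 0.45 and -0.12 after group means were subtracted.

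**Figure D2:**
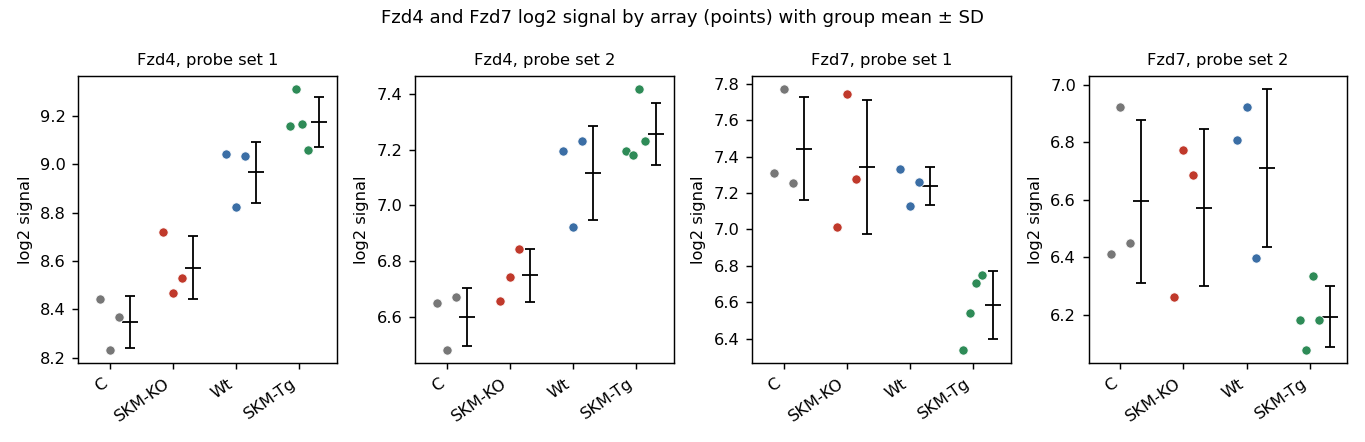
Log2 signal (y axis) of both probe sets of Fzd4 and of Fzd7 in each group (x axis), with 1 point per array and the black mark and bars at the group mean ± SD. Fzd4 steps upward from C at 8.35 to SKM-Tg at 9.17 on its brighter probe set, and the SKM-Tg arrays of Fzd7 lie apart at the bottom of the brighter probe set. The panels have separate y axes that do not start at 0.

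Of the other secreted inhibitors, Frzb and Sfrp2 passed the filter, and neither differed between groups beyond the spread of the arrays. Frzb, also known as secreted frizzled-related protein 3, read 6.79, 6.24 and 6.12 in C, 6.35, 6.24 and 5.97 in SKM-KO, 6.16, 6.70 and 5.93 in Wt, and 6.38, 6.08, 6.35 and 6.32 in SKM-Tg. All groups overlapped. SKM-KO minus C was -0.20 (95% interval -0.65 to 0.25, limma adjusted p = 1) and SKM-Tg minus Wt was 0.02 (95% interval -0.40 to 0.44, limma adjusted p = 0.976) and these intervals leave room for a change in either direction.

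Sfrp2, a secreted Frizzled-related protein found in connective tissue cells, read 5.19, 4.65 and 5.20 in C, 5.02, 5.56 and 4.68 in SKM-KO, 5.20, 6.25 and 4.86 in Wt, and 5.47, 5.59, 5.16 and 5.04 in SKM-Tg. All groups overlapped, and the single highest value was that of Wt 2, the array that stood apart. SKM-KO minus C was 0.07 (95% interval -0.62 to 0.77, limma adjusted p = 1). SKM-Tg minus Wt was -0.13 (95% interval -0.77 to 0.52, limma adjusted p = 0.897), and without Wt 2 it was 0.28, so this 1 array set its direction. Wt minus C was 0.42 (limma adjusted p = 0.371) and 0.02 without Wt 2.

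Dkk2, Sfrp1 and Wif1 lay below the filter and were not tested. Dkk2, the Lrp5 and Lrp6 antagonist, read 3.87, 4.05 and 3.90 in C, 4.01, 3.88 and 4.25 in SKM-KO, 3.55, 3.56 and 3.62 in Wt, and 4.41, 3.46, 3.77 and 3.67 in SKM-Tg. SKM-Tg 1 was the highest of all, and every Wt array lay below every C array. Wt lay wholly below C for 8.51% of all genes tested, and the share among genes below the filter was not counted. Sfrp1 lay between 4.47 and 5.07 on all 13 arrays on the probe set that names no other gene, and 3 further probe sets annotated to both Sfrp1 and Serinc3 were not used for it.

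Wif1 varied widely between the mice of C and of SKM-KO, with 5.80, 5.26 and 4.20 in C, 3.97, 4.56 and 5.61 in SKM-KO, 4.55, 4.51 and 4.77 in Wt, and 3.98, 4.60, 4.32 and 4.55 in SKM-Tg. The highest arrays, C 1, SKM-KO 3 and C 2, came from both groups of the ablation line. Frzb had a dimmer probe set below the filter as well, with values from 4.25 to 4.94. Sfrp4 was not analysed here, since no probe set is annotated to it alone in the table used.

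**Figure D3:**
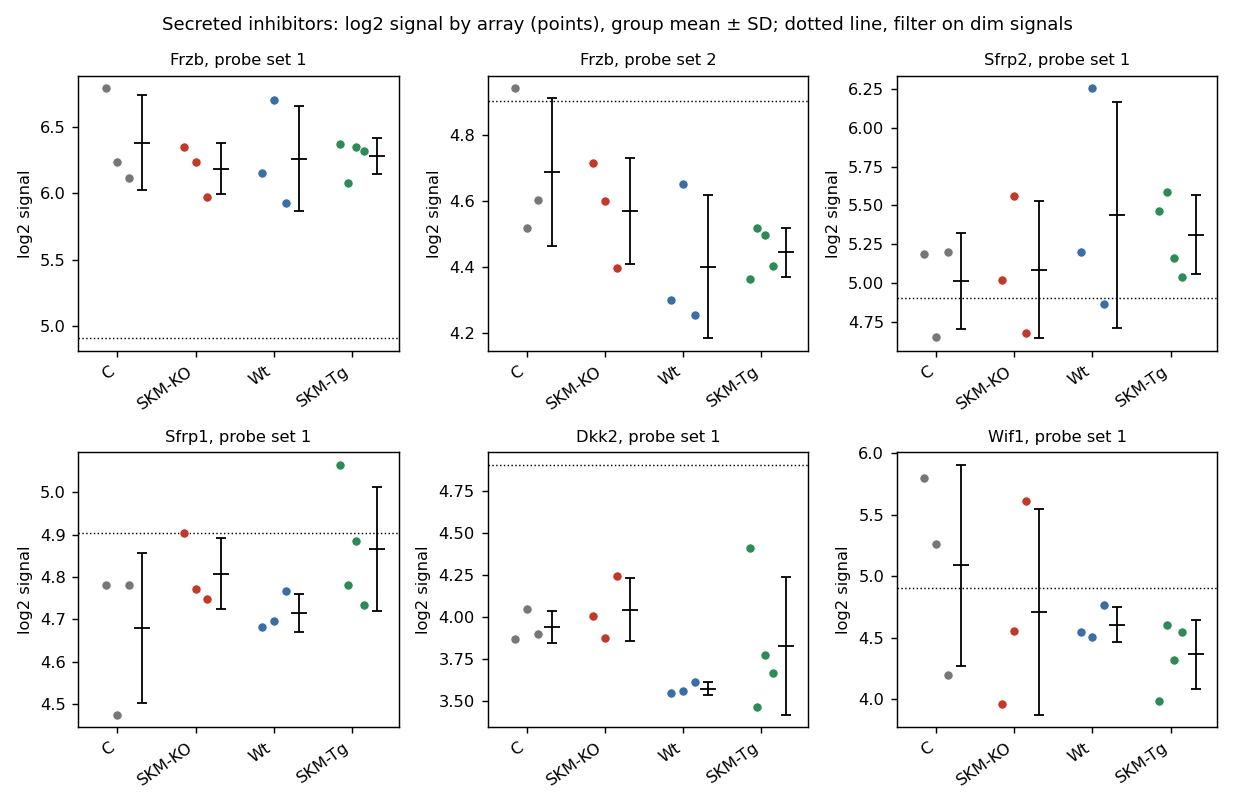
Log2 signal (y axis) of the secreted inhibitors other than Dkk3 in each group (x axis), with 1 point per array and the black mark and bars at the group mean ± SD. The dotted line is the filter at 4.90, and the groups overlap on the brighter Frzb probe set and on Sfrp2, Sfrp1 and Wif1. The panels have separate y axes that do not start at 0.

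In all, 0 of the 4 tested members that were not picked for their effects (Frzb, Sfrp2, Fzd4 and Fzd7) passed in either line, in the difference of effects or between the controls. At an unadjusted p under 0.05 from limma, 0 of these 4 were counted in SKM-KO minus C (58 genes, 0.557% of all tested), 1 in SKM-Tg minus Wt (Fzd7, among 717 genes, 6.89%), 0 in the difference of effects (3.10% of genes) and 1 in Wt minus C (Fzd4, among 2891 genes, 27.8%). With adjustment, 1 gene (0.00961%), 0 genes (0%), 2 genes (0.0192%) and 1 gene (0.00961%) passed in these contrasts in that order. These counts depend on the spread shared by all groups. With each comparison fitted on its own groups, limma gave 285 genes at an unadjusted p under 0.05 in SKM-KO minus C. It gave 297 in SKM-Tg minus Wt and 1391 in Wt minus C. A gene that did not pass in SKM-KO minus C is therefore not shown to be unchanged.

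The rest of the Wnt pathway was taken from lists of 100 further genes, of which 64 were tested, and 0 of them passed in any of the 4 contrasts. In SKM-KO minus C 29 were higher and 35 lower, with a median of -0.0039 against 0.01 over all genes, of which 54.0% were higher, and 0 had an unadjusted p under 0.05. In SKM-Tg minus Wt 21 were higher and 43 lower, with a median of -0.06 against -0.05 over all genes, of which 37.8% were higher, and 6 had an unadjusted p under 0.05. In Wt minus C 49 were higher and 15 lower, with a median of 0.20 against 0.06 over all genes, of which 58.8% were higher, and 12 had an unadjusted p under 0.05. The smallest limma adjusted p of the 64 was 1 in SKM-KO minus C, 0.649 in SKM-Tg minus Wt, 0.989 in the difference of effects and 0.144 in Wt minus C.

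Among 10 Wnt ligands tested, 3 were higher and 7 lower in SKM-KO than in C, and 5 were higher and 5 lower in SKM-Tg than in Wt. The smallest p-values belonged to Wnt2b (-0.22) and Wnt4 (-0.34) in SKM-KO minus C and to Wnt9a (-0.50) and Wnt16 (0.18) in SKM-Tg minus Wt. None of these passed.

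Of 8 other secreted or extracellular modulators, 6 were higher and 2 lower in SKM-KO, and 1 was higher and 7 lower in SKM-Tg. Sfrp5, a further Wnt-binding antagonist, differed by 0.34 and Dkkl1, a Dickkopf-like protein, by -0.13 in SKM-KO minus C. In SKM-Tg minus Wt the heparan sulphate proteoglycan Gpc4 differed by -0.30 (SE 0.10, limma adjusted p = 0.691) and Serpinf1, the secreted factor PEDF, by -0.40 (SE 0.26, limma adjusted p = 0.702).

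Of 17 other receptors and receptor regulators, 6 were higher and 11 lower in SKM-KO, and 8 were higher and 9 lower in SKM-Tg. The planar polarity gene Vangl2 differed by -0.16 and the R-spondin receptor Lgr4 by 0.23 in SKM-KO minus C, while the Wnt co-receptor Ryk differed by 0.25 and the Dickkopf receptor Kremen1 by -0.52 in SKM-Tg minus Wt. The co-receptors that Dkk2 binds, named after their values were seen, differed by -0.01 and 0.13 for Lrp5 and by -0.03 and 0.09 for Lrp6 in SKM-KO minus C and SKM-Tg minus Wt.

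Of 18 intracellular transducers, 7 were higher and 11 lower in SKM-KO, and 4 were higher and 14 lower in SKM-Tg. The corepressor Tle3 differed by 0.18 and the scaffold Dvl3 by -0.14 in SKM-KO minus C, and Dvl2 and the coactivator Pygo2 by -0.32 each in SKM-Tg minus Wt. Ctnnb1, which encodes beta-catenin and was named after its values were seen, differed by -0.0035 in SKM-KO minus C and -0.02 in SKM-Tg minus Wt.

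Of 11 genes listed as Wnt targets, 7 were higher and 4 lower in SKM-KO, and 3 were higher and 8 lower in SKM-Tg. Axin2, the negative feedback gene widely used as a readout of beta-catenin signalling and named here after its values were seen, differed by -0.06 in SKM-KO minus C and -0.09 in SKM-Tg minus Wt. Fosl1 (-0.17) and Dact1 (0.14) had the smallest p-values in SKM-KO minus C, and the hyaluronan receptor Cd44 (-0.52, SE 0.14, limma adjusted p = 0.649) and the cyclin Ccnd1 (-0.39, SE 0.17, limma adjusted p = 0.702) in SKM-Tg minus Wt.

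**Figure D4:**
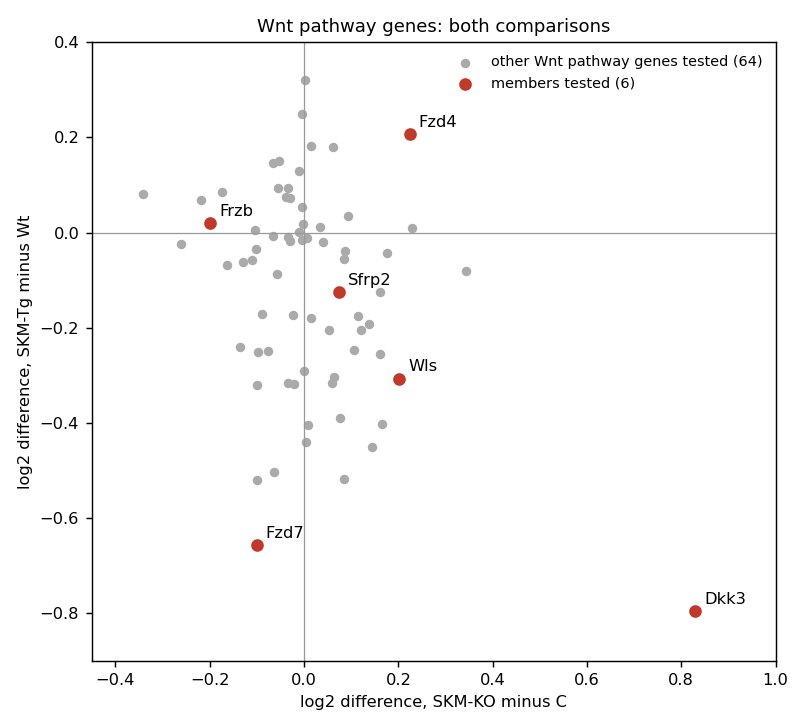
Each point is 1 gene tested, placed by its log2 difference SKM-KO minus C (x axis) and SKM-Tg minus Wt (y axis), with the 6 members in red and named and the 64 other Wnt pathway genes in grey. Dkk3 lies alone at the lower right, at 0.83 and -0.80, because it was picked for that position, and Fzd7 lies lowest of the others at -0.66.

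The genes whose log2 signal correlated most with that of Dkk3 over the 13 arrays were Poglut1 (r = 0.80), Crkl (0.76), Rabgef1 (0.76), Slc29a2 (0.75) and Gcc1 (0.75). After group means were subtracted r was 0.70 for Poglut1 and 0.20 for Crkl, so the likeness of Crkl lay mainly in the group means. Poglut1, an O-glucosyltransferase that modifies Notch, differed by 0.11 in SKM-KO minus C and by -0.24 in SKM-Tg minus Wt, steps far smaller than those of Dkk3.

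The genes most like Wls were Lclat1 (r = 0.95), Dnajb11 (0.95), Trp53bp1 (0.94), Slc4a4 (0.93) and Tbpl1 (0.93), and after group means were subtracted r ran from 0.71 to 0.84. These are descriptions over 13 arrays that hold 4 groups. Slc4a4, a bicarbonate cotransporter, differed by -0.00095 in SKM-KO minus C and by -0.48 in SKM-Tg minus Wt, so a high correlation did not require the same step in both lines.

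Muscle holds other cells that can express these secreted factors, and in whole tissue fewer cells of a type and less RNA per cell cannot be told apart. Of 12 fibroblast and mesenchymal markers 7 were tested, with 4 higher and 3 lower in SKM-KO, and 2 higher and 5 lower in SKM-Tg. The summed linear signals here and below took every marker with a probe set of its own, tested or not, 11 of them in this list. This sum ran from 4548 to 5696 in C, 4929 to 6287 in SKM-KO, 4296 to 6015 in Wt and 3771 to 5312 in SKM-Tg. The sums overlapped in both SKM-KO against C and SKM-Tg against Wt. Pdgfra, a defining marker of these cells, lay below the filter in every group, with means from 3.99 to 4.07. Dcn, given by value because it moved with Dkk3 and Wls, differed by 0.09 in SKM-KO minus C and by -0.20 in SKM-Tg minus Wt. The tendon marker Scx did not move with them in both lines, with differences of -0.16 and -0.25.

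Tendon markers were higher in SKM-KO for 5 of 7 and lower in SKM-Tg for 7 of 7, with sums from 2102 to 2673 in C, 1853 to 3501 in SKM-KO, 2308 to 3460 in Wt and 2035 to 2583 in SKM-Tg. Macrophage markers were higher in SKM-KO for 6 of 6 and lower in SKM-Tg for 5 of 6, with sums from 605 to 733 in C, 694 to 852 in SKM-KO, 615 to 699 in Wt and 439 to 781 in SKM-Tg. Slow-fibre markers were higher in SKM-KO for 7 of 7 and lower in SKM-Tg for 7 of 7, with sums from 12088 to 26393 in C, 19624 to 26516 in SKM-KO, 17074 to 19813 in Wt and 13791 to 18409 in SKM-Tg. Other lists went the other way in SKM-KO. Of smooth muscle and pericyte markers 1 was higher and 5 lower, of endothelial markers 3 and 5, and of satellite cell markers 0 and 2. In SKM-Tg 5 of 6, 7 of 8 and 2 of 2 of these were lower. Fast-fibre markers were higher in SKM-KO for 6 of 9, and adipocyte markers for 2 of 2. Over all genes tested 54.0% were higher in SKM-KO and 37.8% higher in SKM-Tg, and whether any list departs from these shares was not tested. In these lists 0 markers passed, and their part in the Dkk3 and Wls values was not tested.

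Schwann cell markers were higher in SKM-KO for 4 of 4, with sums from 528 to 567 in C and 598 to 843 in SKM-KO that did not overlap. The Wt sums ran from 680 to 880, wholly above C with 4 of 4 markers higher, and those of SKM-Tg from 530 to 1014, across the whole Wt range, with 2 markers higher and 2 lower than in Wt. Mbp, a myelin gene, differed by 0.58 in SKM-KO minus C (SE 0.28, limma adjusted p = 1). Of all genes tested, 4.66% had SKM-KO wholly above C and 15.4% had Wt wholly above C, and no such share was counted for sums. The part of Schwann cells in the higher Dkk3 and Wls signal of SKM-KO was not tested.

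Beside the lower Fzd7 of SKM-Tg stand the satellite cell sums, taken over all 7 listed markers. They ran from 277 to 477 in Wt and from 242 to 347 in SKM-Tg. Of these markers 2 were tested, both lower in SKM-Tg, and the others, Pax7 among them, lay below the filter. Beside Fzd4, the endothelial sums ran from 3403 to 3539 in C, 3305 to 3495 in SKM-KO, 3763 to 4415 in Wt and 2794 to 4203 in SKM-Tg, with 1 of 8 markers higher and 7 lower in SKM-Tg, the direction opposite to that of Fzd4 there. Every Wt sum exceeded every C sum, but by marker 4 were higher and 4 lower in Wt minus C, with a median of 0.04, and the part of these cells in the Fzd4 step was not tested. The adipocyte sums were taken over the 3 markers of 6 that had a probe set of their own, of which 2 were tested. These sums ran from 118 to 145 in C, 114 to 501 in SKM-KO, 129 to 696 in Wt and 398 to 1447 in SKM-Tg. Their means followed the same order of groups as Fzd4, but in SKM-KO and Wt the means rested largely on 1 array each. SKM-KO 2 had a sum of 501, against 133 and 114 in the other SKM-KO arrays. Wt 2 had 696, against 206 and 129 in the other Wt arrays. SKM-KO 2 and Wt 2 had the lowest Fzd4 signal of their groups on the brighter probe set, 8.47 and 8.82. Adipoq, the fat cell hormone adiponectin, averaged 5.23 ± 0.39 (SD, n = 3) in C, 5.81 ± 2.07 (SD, n = 3) in SKM-KO, 6.73 ± 1.85 (SD, n = 3) in Wt and 8.53 ± 0.94 (SD, n = 4) in SKM-Tg. SKM-Tg minus Wt was 1.81 (SE 0.92, 3.50-fold, limma adjusted p = 0.702), with overlap between the groups, and the part of fat cells in the Fzd4 values was not tested.

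**Figure D5:**
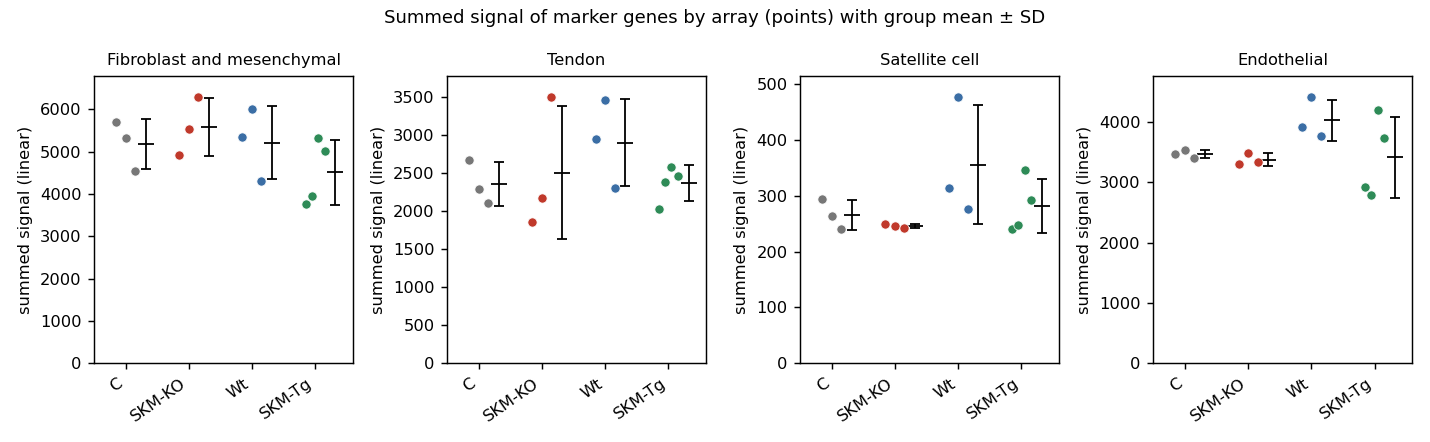
Summed linear signal (y axis, from 0) of the marker genes of 4 cell types in each group (x axis), with 1 point per array and the black mark and bars at the group mean ± SD. The groups of the fibroblast and tendon sums overlap in every pair compared, and Wt 2 has the highest satellite cell sum, at 477.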

How the data were processed

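The deposited values are log2 signals, made by the authors with RMA per the submitters' processing notes, which give no version. RMA adjusts for background, makes the arrays comparable and combines the probes of a set, and it compresses differences of dim probe sets. Per the labels, 25 ng of RNA per mouse was amplified isothermally and labelled with biotin. No depth applies to arrays, and the 3 or 4 arrays per group limit the precision. The array medians lay between 4.85 and 4.94. No batch is labelled, so none was fitted.

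Of 45037 non-control probe sets, 28898 had 1 gene symbol in the platform annotation, 551 several and 15588 none. Each gene took its probe set with the highest mean, and genes at or above the median of 4.90 were tested. All 13 arrays were fitted in limma 3.58.1 (R 4.3.3) with a mean for each group and moderated variances (empirical Bayes). Tests were two-sided, with Benjamini-Hochberg adjustment over 10411 genes, a threshold of 0.05 and 95% intervals; the fit was tested on simulated data. Members' probe sets past the filter were also fitted singly. Named genes were the members, the 5 genes most correlated with Dkk3 and with Wls, and the 2 smallest p-values per Wnt list and comparison. Markers were planned to be given by value where they moved with a member. Genes outside these rules are marked in the text. The members and lists were chosen with earlier results of these data known. Promoters came from RefSeq, GRCm38.p6. Alternatives were other normalizations, filters, probe set summaries, array weights, separate fits and single arrays left out.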

Additional observations from a re-analysis of the deposited data

Results flagged for a closer look

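Dkk3 and Wls had opposite effects in the lines, with every SKM-KO array on one side of the mean of C and every SKM-Tg array on the other side of the mean of Wt. The differences of effects were -1.62 for Dkk3 and -0.51 for Wls, and they were not tested because these genes were picked for them. Trp53inp2 had a difference of effects of 2.29 (limma adjusted p = 2.16e-04), from 3 of 3 SKM-KO arrays below C and SKM-Tg close to Wt.

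The same opposite sides appeared for Gpc4 (difference of effects -0.37, from 0.06 in SKM-KO minus C and -0.30 in SKM-Tg minus Wt), Cd44 (-0.60, from 0.08 and -0.52) and Dcn (-0.29, from 0.09 and -0.20). None of these 3 passed the limma test of the difference of effects after adjustment, and the pattern itself was not tested. Gpc4 and Cd44 were named for their small p-values in SKM-Tg minus Wt, which favours that side of the pattern. The share of all genes tested that show it was not counted, so nothing is read from these 3.

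Within SKM-Tg, 1 array lay far from the other 3 for Vangl2 (5.23 in SKM-Tg 1 against 4.99 to 5.01) and for Dvl2 (5.73 in SKM-Tg 2 against 5.61 to 5.63). Of 39 genes looked at, chance alone would mark about 1 in 20 groups in this way.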

How the results depend on the processing

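The count of genes passing in SKM-KO minus C was 1, and 2 with each gene's probe sets averaged; in the difference of effects it was 2, and 1 with median centring, a filter at the 75th percentile, array weights, or Wt 2 and SKM-Tg 3 both left out, a setting added after seeing the data. In Wt minus C it was 1, with 0 under quantile or cyclic loess normalization, no filter, array weights, a separate fit or both arrays left out, and 2 with the mean of probe sets. Leaving out single arrays gave 1 to 1 genes in SKM-KO minus C, 0 to 30 in SKM-Tg minus Wt, 1 to 2 in the difference of effects and 0 to 4119 in Wt minus C, and 1 to 3 and 0 to 25 probe sets in the respective line comparisons; the highest gene counts of SKM-Tg minus Wt and Wt minus C came without Wt 3, and the cause was not tested. The array weights did not converge and gave Wt 1 a weight of 2.16e-06. Of 576 values of single genes under settings other than a left-out array, 10 changed sign: Sfrp2 in SKM-Tg minus Wt (0.056 with array weights, 0.33 with both arrays left out) and in the difference of effects (0.26, both left out), Fzd4 in the difference of effects (0.072 quantile, 0.051 cyclic loess, 0.076 array weights), Fzd7 in SKM-KO minus C (0.060, array weights), Wnt16 in SKM-Tg minus Wt (-0.012, array weights), and, with both arrays left out, Trp53inp2 (0.027) and Mbp (-0.029) in SKM-Tg minus Wt. Single arrays left out turned the sign of Sfrp2 in SKM-KO minus C (-0.16 to 0.28), SKM-Tg minus Wt (-0.41 to 0.28) and the difference of effects (-0.49 to 0.21), Frzb in SKM-KO minus C (-0.33 to 0.0063), SKM-Tg minus Wt (-0.15 to 0.24) and Wt minus C (-0.34 to 0.084), Fzd4 in the difference of effects (-0.089 to 0.057), Fzd7 in SKM-KO minus C (-0.30 to 0.066), Trp53inp2 (-0.17 to 0.064) and Mbp (-0.14 to 0.26) in SKM-Tg minus Wt, and Col1a1 (-0.12 to 0.36), Tnmd (-0.15 to 0.41) and Adipoq (-0.61 to 1.25) in SKM-KO minus C; 0 of these had passed, and the causes were not tested. Dkk3 and Wls kept their direction in SKM-KO minus C and SKM-Tg minus Wt under every setting run in which they were measured. Both were picked for these directions, and groups that do not overlap keep their sign when any single array is left out. Nothing is therefore read from this. At the 75th-percentile filter Dkk3, Frzb and Sfrp2 were not tested. No paired analysis was possible because the labels carry animal numbers and no replicate numbers shared between groups. Signal over background limits Dkk2, Sfrp1 and Wif1, which lie below the filter.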
